A study of Solanum lycopersicum with 2 samples.

Results

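Ethylene perception in tomato leaf was described through 8 genes: the ethylene receptors ETR1, ETR2, NR (ETR3), ETR4, ETR5 and ETR6, the protein kinase CTR1 and the membrane protein EIN2. The genes were selected by locus identifier and not by a threshold on measured values, although earlier results of these data were known. All 8 were found among the 34725 gene models of the deposited table. The plants were tomato (Solanum lycopersicum), cultivar Ailsa Craig, sampled as young primary leaf of mature plants. There were 2 RNA sequencing libraries, with 1 library per group: SlCycB2-OE, in which the B-type cyclin gene SlCycB2 is overexpressed, and SlCycB2 RNAi, in which RNA interference is directed against the same gene. The sources used here do not give the promoters of the transgenes, the number of plant lines or whether plants were pooled. Wild-type leaf was not analysed here, so a difference has no untransformed reference. With a single library per group no test between the groups was possible, so every difference below describes these 2 libraries.

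Ethylene is a gaseous hormone that acts in fruit ripening, leaf senescence, wounding and defence. Its receptors are negative regulators: without ethylene they keep CTR1 active, CTR1 phosphorylates EIN2 and the signal is blocked. Ethylene binding switches the receptors off, and EIN2 then passes the signal to EIN3-like transcription factors in the nucleus. Receptors fall into subfamily I (ETR1, ETR2 and NR), with a conserved histidine kinase domain, and subfamily II (ETR4, ETR5 and ETR6), in which that domain has diverged.

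The gene names were assigned to the identifiers from general knowledge of tomato genetics, because the deposited table gives none. As a check, each of the 8 names was looked up in a RefSeq gene table (assembly SLM_r2.1). All 8 names matched 1 RefSeq gene, and for 8 of 8 that gene was on the chromosome given by the identifier. ETR1 was on chromosome 12, ETR2 on 7, ETR4 on 6, ETR5 on 11, CTR1 on 10, and NR, ETR6 and EIN2 on 9. On chromosome 9 the order of EIN2, NR and ETR6 was also the same in both.

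Levels were read in the authors' RPKM, the number of reads per kilobase of a gene relative to all mapped reads. The unit corrects for gene length, so levels can be set side by side between genes. Genes were detected in similar number, 23804 in RNAi leaf and 23901 in SlCycB2-OE leaf. The 5 loci written down as leaf markers, Rubisco small subunits and chlorophyll-binding proteins, were at 5311 to 25689 RPKM across both libraries. Of the 3 loci written down as ripe fruit markers, Solyc10g080210 was listed at 0 in both libraries. Solyc01g095080 was at 0.05 RPKM in RNAi leaf and listed at 0 in SlCycB2-OE leaf, and Solyc09g089580 was at 0.87 and 1.89 RPKM. The largest difference of any compared gene was that of Solyc10g083140.1.1, at 12.3 RPKM in RNAi leaf and 4816 RPKM in SlCycB2-OE leaf. The files do not pair this identifier with a name, so it was not taken as a check of SlCycB2. Because the samples were whole leaf, fewer cells expressing a gene and less RNA per cell cannot be told apart.

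The perception genes spanned a range of levels, and their order was the same in the RNAi and the overexpression leaf. EIN2, the central transducer downstream of the receptors, was the most abundant of the 8 in both libraries. It was followed by ETR1, ETR5, ETR2, CTR1, NR, ETR4 and ETR6. In RNAi leaf EIN2 exceeded 74.6% of detected genes in level, ETR1 55.9%, NR 40.6% and ETR6 14.7%. In SlCycB2-OE leaf these shares were 76.9%, 56.7%, 40.6% and 12.6%. Some neighbours in that order were close in level, such as ETR2 and CTR1 at 5.97 and 5.62 RPKM in RNAi leaf, or ETR1 and ETR5 at 9.08 and 8.12 RPKM in SlCycB2-OE leaf. Without replicates, whether such close levels differ cannot be tested.

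**Figure D1:**
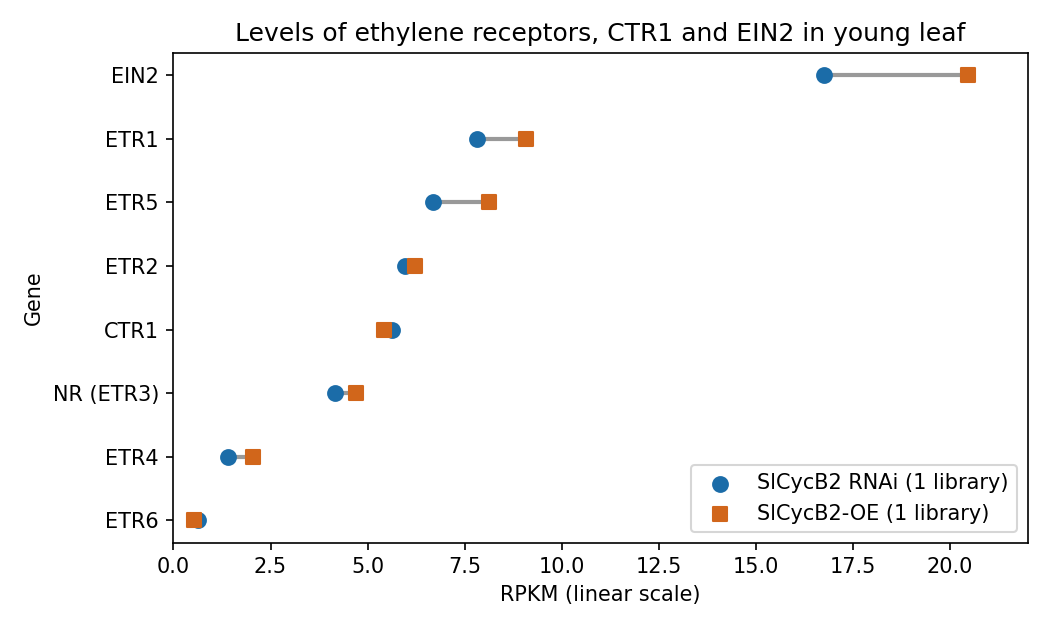
Level of each gene in RPKM on a linear axis, with a circle for the single SlCycB2 RNAi library, a square for the single SlCycB2-OE library and a grey line joining them; no error bar can be drawn with 1 library per group. EIN2 stands apart at 16.8 and 20.5 RPKM, ETR4 and ETR6 lie lowest, and the order of the 8 genes is the same in both libraries.

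The question of whether opposite manipulations of SlCycB2 went with different transcript levels of the perception genes was then addressed gene by gene. None of these genes stood at least 2-fold apart. A mean RPKM of at least 1 was reached by 7 of the 8, and these entered the comparison. It used the log2 ratio of SlCycB2-OE to RNAi after 1 was added to each RPKM, a scale that understates differences of low genes. Among them 0 of 7 were at least 2-fold apart in either direction, where 4.52% of the 19466 compared genes were, 2.60% higher and 1.92% lower in SlCycB2-OE leaf. At a limit of 1.5-fold the count was also 0 of 7, against 14.0% of compared genes, 9.37% higher and 4.59% lower. The 7 log2 differences ran from -0.04 for CTR1 to 0.35 for ETR4, with a median of 0.19, beside a median of 0.13 over all compared genes. That general shift matters for the sign of small differences, since 67.8% of compared genes were higher in SlCycB2-OE leaf. Of the 7 genes, 6 were higher in SlCycB2-OE leaf as deposited and 5 after ratios were centred on the median of all compared genes.

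The 5 leaf marker loci had log2 differences of -0.32 to -0.07. RPKM is scaled to a fixed number of reads, so lower values of very abundant transcripts raise the values of others. These markers do not stand for all abundant genes. The tenth of compared genes with the highest levels had a median log2 difference of 0.02, and Solyc10g083140 was at 8.50. The part of this scaling in the small positive differences of the perception genes was not tested.

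Among the subfamily I receptors, levels in SlCycB2-OE leaf were 4.36% to 16.1% higher than in RNAi leaf. ETR1 (Solyc12g011330), a receptor with both a histidine kinase and a receiver domain, was at 7.82 RPKM in RNAi leaf and 9.08 RPKM in SlCycB2-OE leaf, a log2 difference of 0.19. This placed it close to the middle of the compared genes, of which 57.7% had a lower log2 difference. ETR2 (Solyc07g056580), the other receptor of this subfamily with a receiver domain, was at 5.97 RPKM in RNAi leaf and 6.23 RPKM in SlCycB2-OE leaf, a log2 difference of 0.05. Relative to the median of all compared genes ETR2 was lower in SlCycB2-OE leaf, at -0.08. It was the only receptor among the 5 compared whose sign turned with the centring. NR (Solyc09g075440), the receptor altered in the Never-ripe mutant, lacks a receiver domain and is known for its induction in ripening fruit. It was at 4.17 RPKM in RNAi leaf and 4.70 RPKM in SlCycB2-OE leaf, a log2 difference of 0.14, which was 0.006 after centring.

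Subfamily II held the highest log2 difference of the 8 genes and the lowest levels. ETR5 (Solyc11g006180), the most abundant of this subfamily in leaf, was at 6.69 RPKM in RNAi leaf and 8.12 RPKM in SlCycB2-OE leaf, a log2 difference of 0.25. ETR4 (Solyc06g053710), a receptor whose reduced expression makes tomato oversensitive to ethylene, was at 1.40 RPKM in RNAi leaf and 2.06 RPKM in SlCycB2-OE leaf. Its ratio of 1.47 was the highest of the 8 genes, and its log2 difference with the pseudocount was 0.35. At such low levels ratios scatter widely: in the tenth of compared genes with mean RPKM from 1 to 1.97, the central 90% of log2 differences ran from -0.93 to 1.06. The difference of ETR4 was well inside that range. Its size moved with the pseudocount, at 0.53 with 0.1 and 0.14 with 5.

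ETR6 (Solyc09g089610) was the least abundant receptor and, unlike the others, was lower in SlCycB2-OE leaf. It was at 0.64 RPKM in RNAi leaf and 0.52 RPKM in SlCycB2-OE leaf. With a mean of 0.58 RPKM it fell below the minimum for the comparison. Its ratio of 0.812 therefore rests on a low level in both libraries, and the number of reads behind it is unknown.

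CTR1 (Solyc10g083610), the kinase that the receptors hold active, had almost the same level in both libraries. It was at 5.62 RPKM in RNAi leaf and 5.43 RPKM in SlCycB2-OE leaf. Its log2 difference was -0.04, or -0.18 relative to the median of all compared genes. EIN2 (Solyc09g007870) was at 16.8 RPKM in RNAi leaf and 20.5 RPKM in SlCycB2-OE leaf, a log2 difference of 0.27, or 0.14 after centring. In both genes the difference was within the central 90% of genes of similar level. That range was -0.50 to 0.77 for the tenth that held CTR1 and -0.39 to 0.63 for the tenth that held EIN2.

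**Figure D2:**
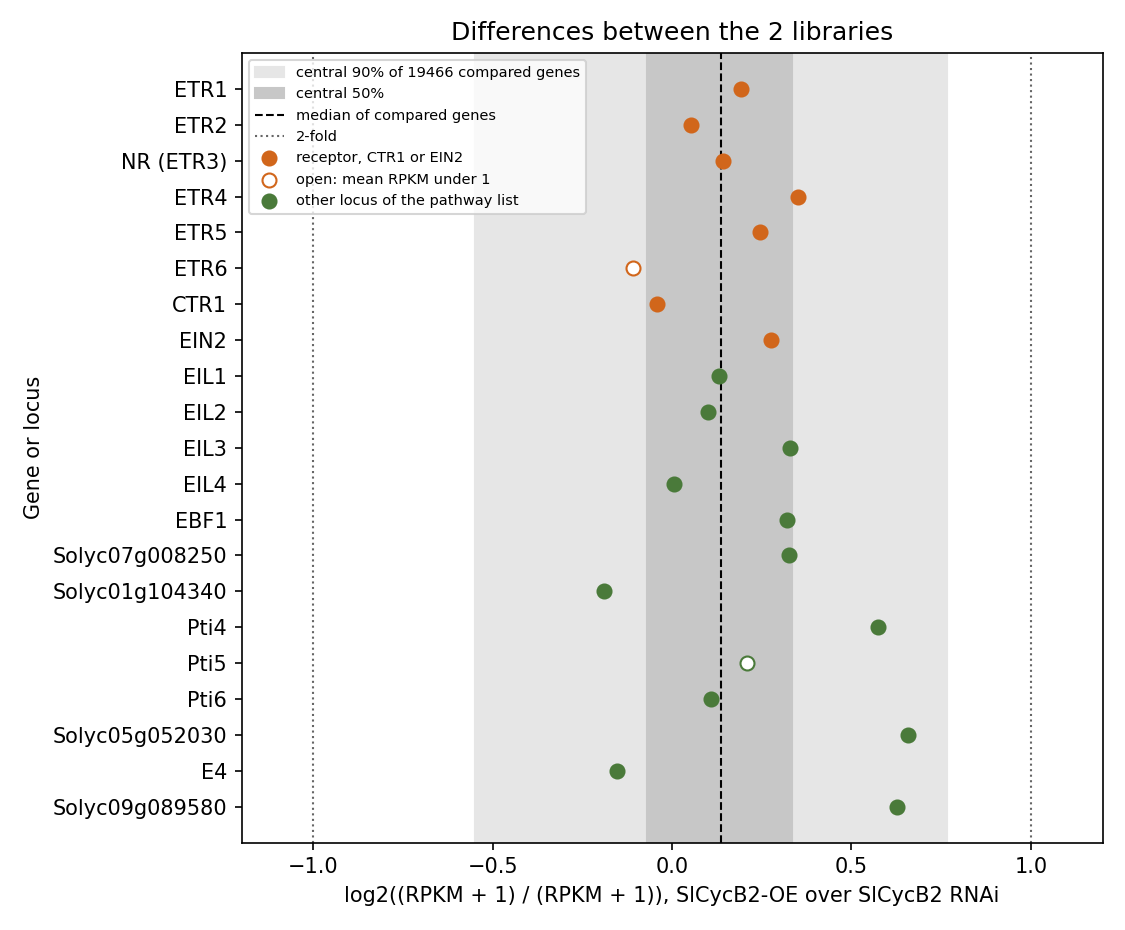
Log2 difference, overexpression over RNAi with a pseudocount of 1, for the 8 genes (orange) and 13 other loci of the pathway list (green), 1 library per group; open circles have a mean RPKM under 1, grey bands hold the central 50% and 90% of compared genes, the dashed line is their median and dotted lines mark 2-fold. No locus reaches 2-fold on this scale, and the compared perception genes lie between -0.04 and 0.35.

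The make-up of the receptor pool was nearly the same in both libraries. This was described as the share of each receptor in the RPKM sum of all 6, which does not depend on how a library was scaled. The sum was 26.7 RPKM in RNAi leaf and 30.7 RPKM in SlCycB2-OE leaf, a ratio of 1.15. ETR1 made up 29.3% of it in RNAi leaf and 29.6% in SlCycB2-OE leaf. ETR5 made up 25.1% and 26.4%, ETR2 22.4% and 20.3%, and NR 15.6% and 15.3%. ETR4 and ETR6 were minor, at 5.25% and 2.40% in RNAi leaf and 6.71% and 1.69% in SlCycB2-OE leaf. Subfamily II thus held 32.7% of the receptor sum in RNAi leaf and 34.8% in SlCycB2-OE leaf, a difference of 2.13 percentage points. In percentage points no receptor's share moved by more than that of ETR2, which differed by -2.08. As ratios of SlCycB2-OE to RNAi leaf, the shares of the low receptors moved more. These ratios were 1.28 for ETR4 and 0.706 for ETR6, beside 0.907 for ETR2.

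**Figure D3:**
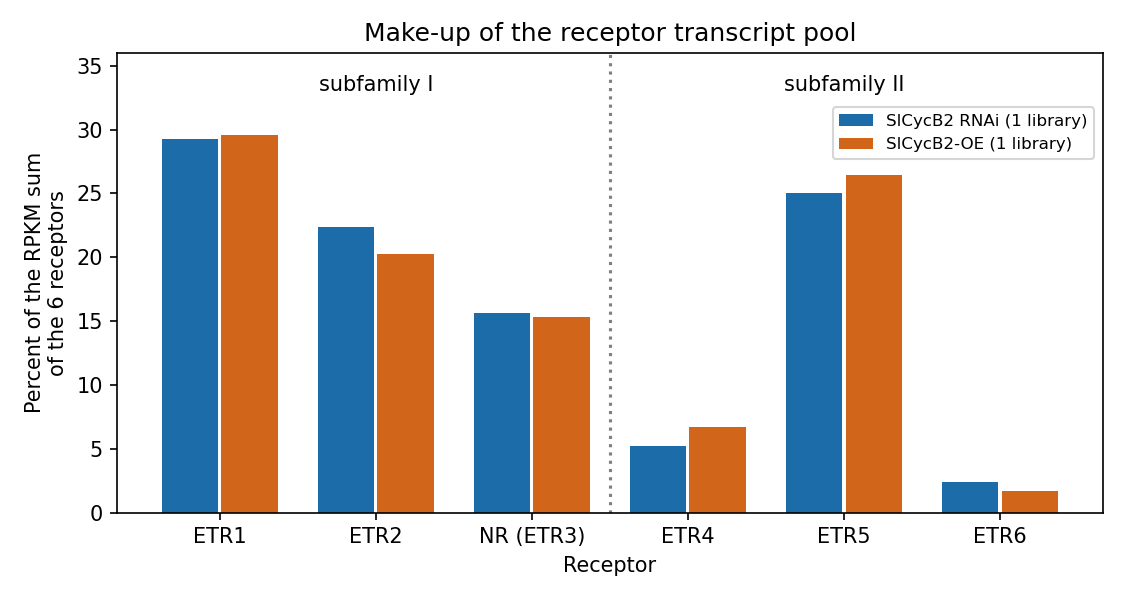
Share of each receptor in the RPKM sum of the 6 receptors, in percent, for the single SlCycB2 RNAi library (blue) and the single SlCycB2-OE library (orange); the dotted line separates subfamily I from subfamily II. ETR1 and ETR5 are the largest shares in both libraries, and ETR4 and ETR6 the smallest.

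The balance between transcripts of the receptors and those of the steps below them was compared in the same way. Protein levels were not part of these data. The receptor sum was 4.75 times the level of CTR1 in RNAi leaf and 5.66 times in SlCycB2-OE leaf. Against EIN2 the receptor sum was 1.59 times in RNAi leaf and 1.5 times in SlCycB2-OE leaf. EIN2 was 2.98 times the level of CTR1 in RNAi leaf and 3.77 times in SlCycB2-OE leaf. The 8 genes form 28 pairs, and the ratio within a pair differed between the libraries by less than 1.2-fold in 13 pairs and by less than 1.5-fold in 25. The 3 pairs beyond 1.5-fold were ETR4 with ETR6 at 1.81-fold, ETR4 with CTR1 at 1.52-fold and ETR6 with EIN2 just past that limit, so each involved a receptor of low level. Across the 7 compared genes the SD of the log2 differences was 0.13, beside 0.51 over all compared genes. The larger SD includes extreme genes, such as Solyc10g083140 at a log2 difference of 8.50. The lower and upper quartiles over all compared genes were -0.07 and 0.33, while the 7 genes ran from -0.04 to 0.35. The SDs therefore do not show how much closer together the perception genes were than most genes.

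Other genes of the pathway were taken from a list of 13 loci, of which 12 passed the minimum level. With the pseudocount of 1 none was at least 2-fold apart, against 4.52% of compared genes. Without a pseudocount the ratio of 1 of them, Solyc09g089580, was 2.17, at a low level. The median log2 difference of the 12 was 0.23, beside 0.13 over all compared genes. Of these 12, 10 were higher and 2 lower in SlCycB2-OE leaf, and 6 were higher and 6 lower after centring. At a 1.5-fold limit, chosen for this list after the data were seen, 2 of the 12 were higher and 0 lower. Of all compared genes 9.37% were higher and 4.59% lower at that limit. Pti4 fell just under it with the pseudocount, but its ratio without a pseudocount was 1.52. For 9 of the 13 loci the name written down belonged to a RefSeq gene on the same chromosome, and only those are named here.

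The EIN3-like transcription factors, which switch on ethylene responses below EIN2, were more abundant than any receptor. EIL1 was at 26.9 RPKM in RNAi leaf and 29.5 RPKM in SlCycB2-OE leaf. EIL2 was at 27.3 RPKM in RNAi leaf and 29.3 RPKM in SlCycB2-OE leaf. EIL4 was at 27.8 RPKM in RNAi leaf and 27.9 RPKM in SlCycB2-OE leaf. These 3 were close in level to each other and had log2 differences of -0.13 to -0.004 relative to the median of all compared genes. EIL3 was at 18.5 RPKM in RNAi leaf and 23.5 RPKM in SlCycB2-OE leaf, a log2 difference of 0.33. EBF1, an F-box protein that targets EIN3-like factors for degradation, was at 20.3 RPKM in RNAi leaf and 25.6 RPKM in SlCycB2-OE leaf, a log2 difference of 0.32.

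The named response genes that passed the minimum level had log2 differences from -0.15 for E4 to 0.57 for Pti4. Pti4, an ethylene response factor first known as a partner of the resistance kinase Pto, was at 14.1 RPKM in RNAi leaf and 21.4 RPKM in SlCycB2-OE leaf. Its log2 difference of 0.57 was higher than that of 90.2% of compared genes. Pti6, another partner of Pto, was at 5.74 RPKM in RNAi leaf and 6.26 RPKM in SlCycB2-OE leaf, while Pti5 was at 0.42 and 0.64 RPKM, under the minimum for the comparison. E4, an ethylene-responsive gene of ripening fruit, was at 21.6 RPKM in RNAi leaf and 19.4 RPKM in SlCycB2-OE leaf, a log2 difference of -0.15.

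The remaining 4 loci of the list are given by identifier, since the name written down was on another chromosome in RefSeq or was not matched. Solyc05g052030 was at 39.8 RPKM in RNAi leaf and 63.3 RPKM in SlCycB2-OE leaf, with the highest log2 difference of the list at 0.66. Solyc09g089580 was at 0.87 RPKM in RNAi leaf and 1.89 RPKM in SlCycB2-OE leaf, a log2 difference of 0.63 that passed 2-fold, at 1.04, with a pseudocount of 0.1. These 2 were the loci past the 1.5-fold limit with a pseudocount of 1. Solyc07g008250 was at 14.8 RPKM in RNAi leaf and 18.8 RPKM in SlCycB2-OE leaf, and Solyc01g104340 was at 4.19 and 3.55 RPKM.

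The position of the 8 genes among their neighbours was described with the 5 nearest identifiers on each side. Of these 80 neighbours 50 reached a mean of 1 RPKM, and 1 of the 50 was at least 2-fold apart, against 4.52% of compared genes. That was Solyc11g006230, the fifth identifier after ETR5, at 9.16 RPKM in RNAi leaf and 48.8 RPKM in SlCycB2-OE leaf. The identifier just before ETR5, Solyc11g006170, was within 2-fold, as was the one just after it, Solyc11g006190. Median log2 differences of the compared neighbours ran from 0.01 for ETR2 to 0.72 for EIN2. The value for EIN2 came from a run of 4 consecutive identifiers, Solyc09g007890 to Solyc09g007920, singled out after their values were seen. They were at 16.5 to 67.1 RPKM in RNAi leaf and 30.6 to 114.6 RPKM in SlCycB2-OE leaf, with log2 differences of 0.72 to 0.85. EIN2 itself, at 0.27, and the identifier between it and the run, at 0.02, were not as high. CTR1 lies on chromosome 10 as does Solyc10g083140, with 46 identifiers of the table between them, and the log2 differences of its 6 compared neighbours ran from -0.05 to 0.36.

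**Figure D4:**
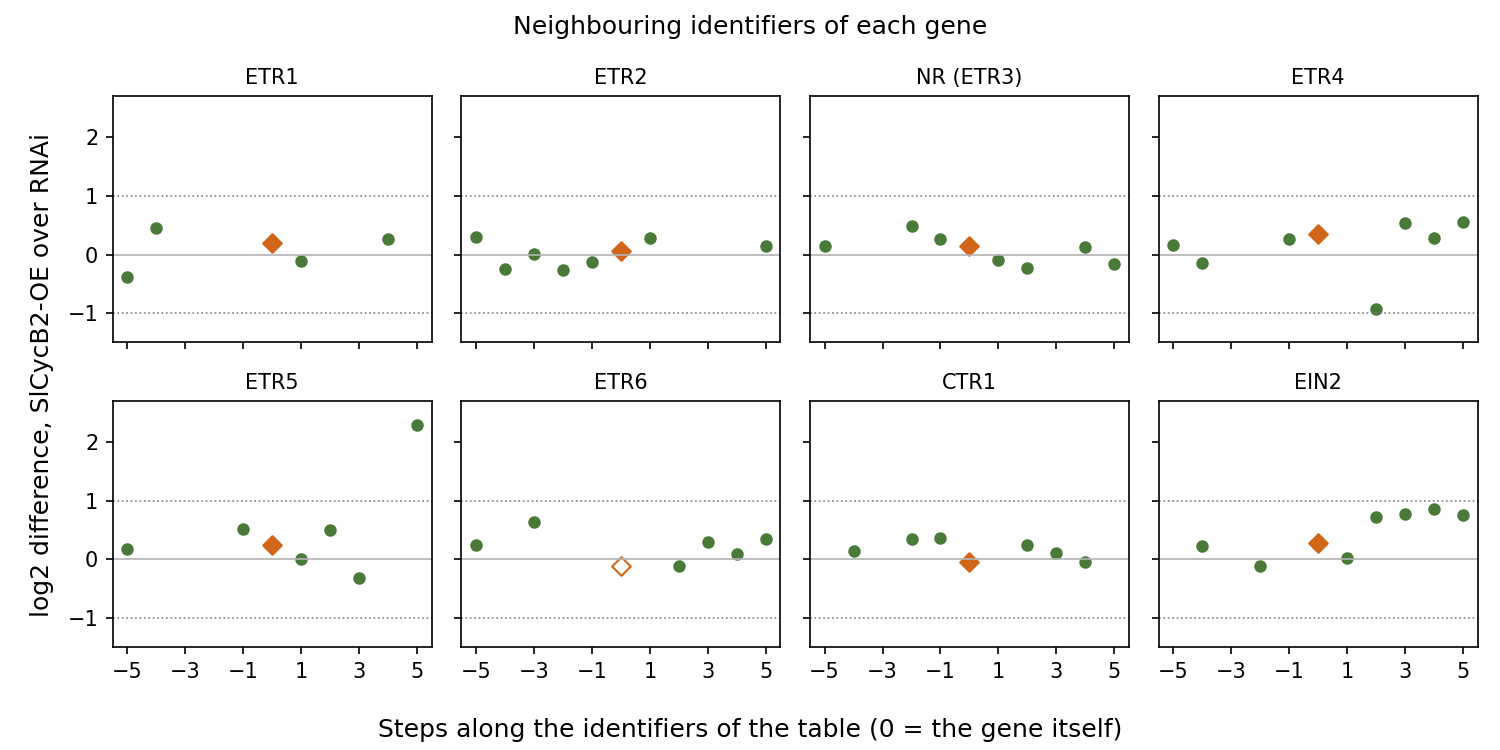
Log2 difference, overexpression over RNAi, of each gene (diamond, open where the mean RPKM was under 1) and of those of its 5 nearest identifiers on each side with a mean RPKM of at least 1 (circles), plotted by steps along the identifiers; dotted lines mark 2-fold. The only neighbour beyond 2-fold is the fifth after ETR5, at 2.29, and 4 consecutive neighbours after EIN2 lie between 0.72 and 0.85.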

How the data were processed

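The authors deposited 1 RPKM value per gene model and library, per the file headers, with 2 decimals. The submitters' processing notes name TopHat, with no version or role. Genome build, annotation, counting program, strand and the handling of reads with several matches are not given in these sources, so reads shared between similar receptors could not be assessed. Absolute depth is unknown. Relative depth was scanned from 0.5 to 2 over 2589 low genes, and the worth of 1 read, overexpression over RNAi, matched best at 1.02. At that value 28.0% of these genes lay at ratios of small whole numbers of reads, against a median of 3.75% over the scan.

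Log2 differences used a pseudocount of 1 and a minimum mean of 1 RPKM. Apart meant at least 2-fold. The 19466 of 34725 genes that reached the minimum mean were compared, and no p-value was computed. The genes and lists were chosen with earlier results of these data known, and the rule for named genes took the 8 genes, the 13 other pathway loci, neighbours at least 2-fold apart and the gene with the largest difference. The tissue markers and the neighbours of ETR5 and EIN2 within 2-fold are named outside that rule, these neighbours after their values were seen. Of the table's identifiers, 0 were found in the RefSeq table of 41476 genes. Names were matched by symbol or synonym and compared by chromosome and order, and for 17 loci on the same chromosome 11 of 11 pairs had the same order. The ratio calculation was tested on simulated data with large planted changes and an assumed depth. That test did not cover small differences or low levels. Python 3.11.15, numpy 2.4.6, pandas 2.3.3 and matplotlib 3.10.9 were used.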

Additional observations from a re-analysis of the deposited data

How the results depend on the processing

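The count of 0 perception genes at least 2-fold apart held with pseudocounts of 0.1 and 5, equal RPKM sums, centring on the median ratio and a trimmed mean of ratios. It also held with no filter, which compared 8 genes, a minimum mean of 5 RPKM, which compared 5, and a 1.5-fold limit. The highest ratio without a pseudocount was 1.47, for ETR4. These settings therefore had little room to change the count, and its holding says little about robustness. At 1.5-fold 14.0% of compared genes were apart, and shares under the other settings are not given here. The median log2 difference of the perception genes ranged from 0.06 under the trimmed mean to 0.21 with a pseudocount of 0.1. ETR2 turned from 0.05 to -0.08 under centring and under the trimmed mean. For the other pathway loci, 1 was at least 2-fold apart with a pseudocount of 0.1, Solyc09g089580 at 1.04, and 2 of 12 were past a 1.5-fold limit chosen after the data were seen, against 14.0% of all compared genes. EIL1, EIL2, EIL4 and Pti6 turned negative under centring and the trimmed mean. All 105 values of the 21 loci under 5 settings stayed within 1 SD, across genes, of the value as reported. This limit was wide, at 0.41 to 0.62, while centring lowered every locus by only 0.13. The sign changes above and Solyc09g089580 at 1.04 also fell within it, so the count says little about robustness. That SD came from compared genes of similar level, or from those of lowest level for ETR6 and Pti5, which are under the filter. It does not stand for the missing replicate spread. With each receptor left out in turn, the subfamily II share was 1.17 to 3.20 percentage points higher in SlCycB2-OE leaf. With a pseudocount of 1 before summing, the log2 difference of the receptor sum over CTR1 went from 0.25 to 0.21 and that over EIN2 from -0.09 to -0.11. No paired analysis was possible because each group is 1 library, and no replicate could be left out. Counting error is unknown for every locus, as depth is not given.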
